A study of Mus musculus with 6 samples.

Results

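Mns1, BC065403, Gm9869, Uaca, Rnf26, Tecta and 9230112J17Rik are 7 genes of mouse chromosome 9 that lie between 42 and 73 Mb. They are 7 of the 55376 genes in the count table and of the 752 table genes in that span. They were selected on the difference between genotypes in these same retinas, as the genes of the span that separated WT from Wfs1-KO most clearly in every retina. Their genotype difference is therefore the selection criterion, and it is described here without a test. The retinas came from 3 WT and 3 Wfs1-KO mice, all 240 days old, and a separate mouse gave each library according to the methods of the study. Wfs1-KO mice carried a targeted deletion of exon 8 of Wfs1, the gene of the endoplasmic reticulum protein wolframin, in the germ line and thus in every cell. The labels name the strain of both groups C57x129, whereas the methods give a C57BL/6J background. Whole retinas were profiled by RNA-seq, so that fewer cells of a type and less RNA per cell cannot be told apart.

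The 7 genes have little in common besides the chromosome. Mns1 encodes a coiled-coil protein of the axoneme, the microtubule core of motile cilia and sperm flagella, where it lies inside the doublet microtubules. Uaca, also called nucling, encodes a protein with ankyrin repeats and coiled coils that was first found as an autoantigen in uveitis and that binds components of the apoptosome. Rnf26 encodes an E3 ubiquitin ligase of the endoplasmic reticulum membrane that holds endosomes near the nucleus and modifies the innate immune adaptor STING. Tecta encodes alpha-tectorin, a structural glycoprotein of the tectorial membrane of the inner ear. The other 3 are long non-coding RNAs, of which GENCODE annotates BC065403 and Gm9869 as antisense RNAs and 9230112J17Rik as an intergenic RNA. The photoreceptors of the retina carry a modified, non-motile cilium, and the tectorial membrane is a structure of the ear.

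By the positions deposited with the counts, the members fall into 4 neighbourhoods on mm10. Tecta (ENSMUSG00000037705.13) occupies chr9:42329622-42399929 on the minus strand, and the gap to Rnf26 is 1710.9 kb. Rnf26 (ENSMUSG00000053128.15) is a single exon at chr9:44110781-44113504 on the minus strand, and it is 16410.5 kb away from the next member. 9230112J17Rik (ENSMUSG00000111761.1, chr9:60523967-60545882, minus strand) lies 248.7 kb below Uaca (ENSMUSG00000034485.10, chr9:60794542-60880370, plus strand). Gm9869 (ENSMUSG00000052143.8, chr9:60821552-60838200, minus strand) sits within Uaca, with both of its exons, of 355 and 325 bases, inside the first of the 18 introns of Uaca. After a further 11523.5 kb come BC065403 (ENSMUSG00000097211.2, chr9:72361735-72409945, minus strand) and Mns1 (ENSMUSG00000032221.14, chr9:72438535-72462025, plus strand), which point away from each other across 28.6 kb.

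**Figure D1:**
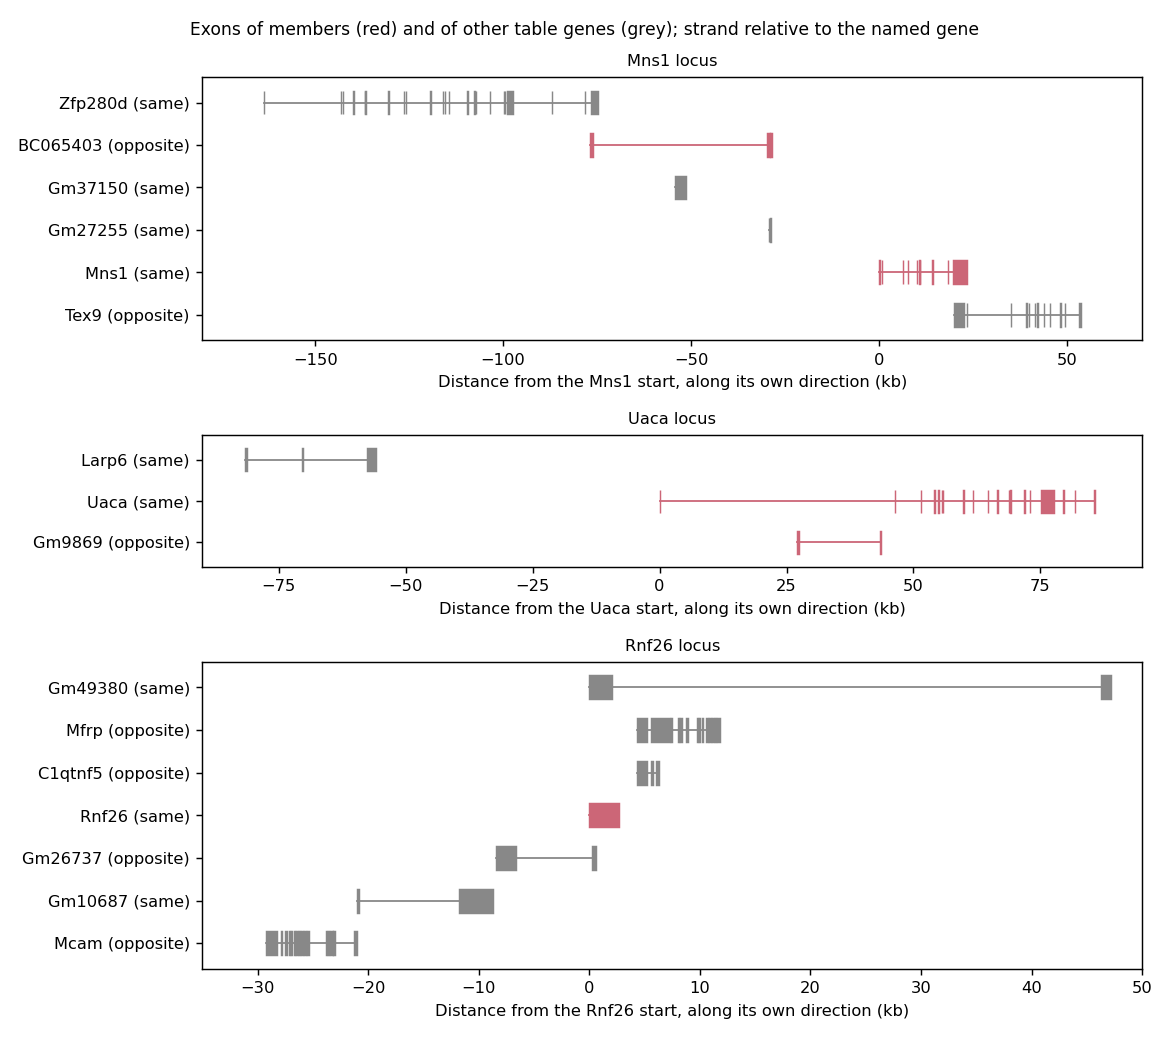
Exon maps of the loci of Mns1, Uaca and Rnf26, with the distance from the start of the named gene along its own direction in kb on the x axis, exons as boxes (members red, other table genes grey) and strand given relative to the named gene. Both exons of Gm9869 fall in the first intron of Uaca, Mns1 and Tex9 meet at their ends and share 2842 exon bases, and Rnf26 lies largely under Gm49380.

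The 250 bases before the RefSeq start (GRCm38.p6) are shown for Mns1 and Uaca, the protein-coding genes at the larger loci of the set, with one lower and one higher in Wfs1-KO. Capitals mark a match to the half-site of RFX factors, which regulate many ciliary genes. Mns1 is read from chr9:72438279-72438528 and Uaca from chr9:60794192-60794441, both on the plus strand.
Mns1: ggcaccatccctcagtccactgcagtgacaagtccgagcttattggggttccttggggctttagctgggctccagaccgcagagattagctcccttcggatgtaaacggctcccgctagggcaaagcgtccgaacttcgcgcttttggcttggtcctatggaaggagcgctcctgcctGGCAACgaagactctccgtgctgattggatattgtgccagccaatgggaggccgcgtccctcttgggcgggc
Uaca: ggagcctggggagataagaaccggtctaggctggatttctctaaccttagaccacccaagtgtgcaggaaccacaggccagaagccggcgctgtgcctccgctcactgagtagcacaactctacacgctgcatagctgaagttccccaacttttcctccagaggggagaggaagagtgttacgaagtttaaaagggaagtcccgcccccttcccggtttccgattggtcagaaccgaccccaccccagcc
RefSeq promoters were found for 6 of the 7 members, all but Gm9869. The Mns1 window held 59.6% G and C and 15 CpG dinucleotides, and the Uaca window held 56.8% and 10, against a median of 52.4% G and C over 32817 promoters. The RFX half-site was searched as GTTGCC on both strands. In Mns1 it stood on the minus strand, 72 bases before the start, where the plus strand reads GGCAAC, and the first Tecta promoter also held one, 172 bases before the start. The letters occur in 10.4% of all promoters. Rnf26 held a forkhead motif (GTAAACA, 3.16% of promoters) 191 bases before its start and a STAT motif (TTCNNNGAA, 7.01%) 55 bases before it. The RefSeq start of Rnf26 lies downstream of the GENCODE one, and its window falls inside the GENCODE exon. The cyclic AMP response element core (TGACGT, 6.46%) and the endoplasmic reticulum stress element (ERSE, 0.113%) were found in none of the members' promoters. A match is only a description of the letters in the window.

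Total counts per retina ranged from 17916885 to 101334381, so that 3 counts corresponded to between 0.0291 and 0.170 CPM (counts-per-million, with library sizes adjusted by TMM normalisation). Wfs1 had 61.4 to 69.9 CPM in WT and 9.63, 0.900 and 11.5 CPM in Wfs1-KO replicates 1, 2 and 3. Wfs1-KO replicate 2 stood apart, with a mean correlation to the other libraries of 0.918, whereas the others lay between 0.962 and 0.971. This retina also had the highest summed markers of red blood cells (480 CPM, against 12.3 to 41.2 CPM in the other 5), of microglia and macrophages (252 against 28.6 to 46.1 CPM) and of pigment epithelium (517 against 63.5 to 184 CPM), with none of the listed genes of these 3 types at 0 throughout. The pigment epithelium markers of the other mutant retinas summed to 103 and 63.5 CPM, below the WT values of 127, 184 and 146 CPM. Without Wfs1-KO replicate 2 the median log2 fold change of these 12 markers was -0.78, with 2 above 0 and 1 called by edgeR, Lrat, against 0.20 and none called with all retinas. The part of these cells in the results was not tested. Photoreceptor markers summed to 53702 CPM in Wfs1-KO replicate 2 and to between 69905 and 78596 CPM in the other 5 retinas. Lens markers summed to no more than 3.13 CPM in any retina, with Crygc at 0. WT replicate 3 was the only library with more than 2 counts of the Y-linked gene Ddx3y. Member values are therefore also given without Wfs1-KO replicate 2 and without WT replicate 3.

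Mns1, the axonemal protein, was lower in all Wfs1-KO retinas. It had 10.7, 11.6 and 10.6 CPM in WT replicates 1, 2 and 3, from 711, 554 and 186 reads. In Wfs1-KO replicates 1, 2 and 3 it had 0.970, 1.42 and 1.02 CPM, from 100, 60 and 45 reads. The WT retinas lay close together and the lowest of them was far above the highest mutant one. The means were 10.97 ± 0.589 CPM in WT and 1.14 ± 0.247 CPM in Wfs1-KO (SD, n = 3 each), a 9.64-fold ratio, and the log2 fold change was -3.27 (SE 0.26). It was -3.47 without Wfs1-KO replicate 2 and -3.32 without WT replicate 3. Wfs1-KO replicate 2, the library that stood apart, had the highest mutant level.

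BC065403, the antisense RNA upstream of Mns1, was nearly absent from the mutant libraries. WT retinas held 127, 87 and 39 reads, or 1.91, 1.83 and 2.21 CPM, whereas Wfs1-KO retinas held 0, 1 and 0 reads. The pooled ratio was 364, with a 95% interval of 64.7 to 14428 that covers counting error only and rests on 1 mutant read. Its fitted log2 fold change, -7.96 (SE 0.82), depends on the prior count of the fit and moved to -9.78 without Wfs1-KO replicate 2, which held that read, and to -7.94 without WT replicate 3. Relative to Mns1, BC065403 reads came to 18.2 ± 2.65% in WT and 0.556 ± 0.962% in Wfs1-KO (SD, n = 3 each), so the non-coding RNA was reduced by a larger factor than its neighbour.

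Rnf26, the ubiquitin ligase, was also lower. Its WT levels were 1.40, 1.13 and 1.48 CPM (93, 54 and 26 reads), and its Wfs1-KO levels were 0.0970, 0.118 and 0.159 CPM (10, 5 and 7 reads). All mutant libraries held some reads, and the lowest WT value was well above the highest mutant one. The means were 1.34 ± 0.179 and 0.125 ± 0.0314 CPM (SD, n = 3 each), with a log2 fold change of -3.42 (SE 0.44), which was -3.44 without Wfs1-KO replicate 2 and -3.37 without WT replicate 3.

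9230112J17Rik, the intergenic RNA below Uaca, had 0.828, 0.715 and 0.795 CPM in WT (55, 34 and 14 reads) and 0.0388, 0.0237 and 0 CPM in Wfs1-KO (4, 1 and 0 reads). As with BC065403, the mutant level lay at the limit of detection. The pooled ratio was 29.6 with a 95% counting interval of 12.3 to 93.2. The fitted log2 fold change was -4.87 (SE 0.72), -4.81 without Wfs1-KO replicate 2 and -4.90 without WT replicate 3.

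Uaca, the member with the most reads, was higher in Wfs1-KO by the smallest factor of the 7. It had 24.7, 20.8 and 21.1 CPM in WT (1639, 989 and 372 reads) and 58.4, 48.2 and 54.5 CPM in Wfs1-KO (6013, 2036 and 2401 reads). The groups did not overlap, and Wfs1-KO replicate 2 was the lowest of the mutants. The means were 22.2 ± 2.16 and 53.7 ± 5.12 CPM (SD, n = 3 each), a 2.42-fold ratio. The log2 fold change was 1.27 (SE 0.17), 1.34 without Wfs1-KO replicate 2 and 1.22 without WT replicate 3.

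Gm9869, the antisense RNA in the first intron of Uaca, was higher by a larger factor than its host. WT retinas had 1.25, 1.85 and 1.70 CPM (83, 88 and 30 reads), and Wfs1-KO retinas had 9.59, 8.86 and 9.01 CPM (988, 374 and 397 reads). The mutant values varied by a few per cent, with a coefficient of variation of 4.21%, against 19.5% in WT. The means were 1.601 ± 0.313 and 9.15 ± 0.385 CPM (SD, n = 3 each), with a log2 fold change of 2.52 (SE 0.26) that was 2.55 without either Wfs1-KO replicate 2 or WT replicate 3. Reads of Gm9869 came to 5.06, 8.90 and 8.06% of those of Uaca in WT and to 16.4, 18.4 and 16.5% in Wfs1-KO, again without overlap.

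Tecta, the inner-ear glycoprotein, was close to the floor in WT and higher in Wfs1-KO. It had 0.241, 0.210 and 0.227 CPM in WT (16, 10 and 4 reads) and 2.59, 2.37 and 1.39 CPM in Wfs1-KO (267, 100 and 61 reads). Wfs1-KO replicate 3 was lower than the other mutants and still above every WT retina. The means were 0.226 ± 0.0154 and 2.11 ± 0.642 CPM (SD, n = 3 each), with a log2 fold change of 3.21 (SE 0.42), which was 3.13 without Wfs1-KO replicate 2 and 3.20 without WT replicate 3.

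**Figure D2:**
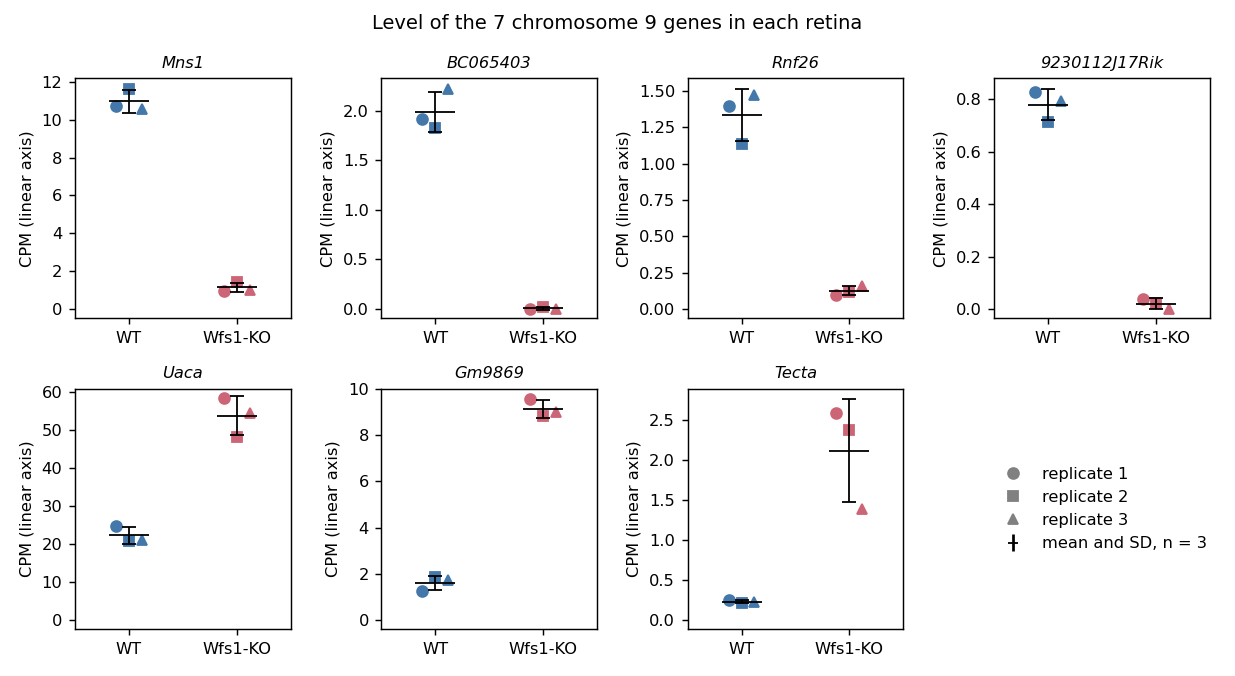
CPM of the 7 genes in each retina, on a linear axis of its own for each gene, with 1 point for each WT (blue) and Wfs1-KO (red) retina and black bars for the mean and SD (n = 3 each). In each panel all WT points lie on one side of all Wfs1-KO points, with 4 genes lower and 3 higher in Wfs1-KO, as the choice of the genes fixes.

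The direction was the same in each alternative in which a member could be fitted, as the choice of the genes fixes. The log2 fold changes stayed between -3.50 and -3.17 for Mns1, between -3.63 and -3.24 for Rnf26 and between 1.21 and 1.36 for Uaca. They stayed between 2.36 and 2.65 for Gm9869 and between 3.03 and 3.44 for Tecta. The fits of BC065403, from -9.94 to -7.10, and of 9230112J17Rik, from -5.75 to -4.47, moved more, as their mutant libraries held 1 read and 5 reads in total.

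**Figure D3:**
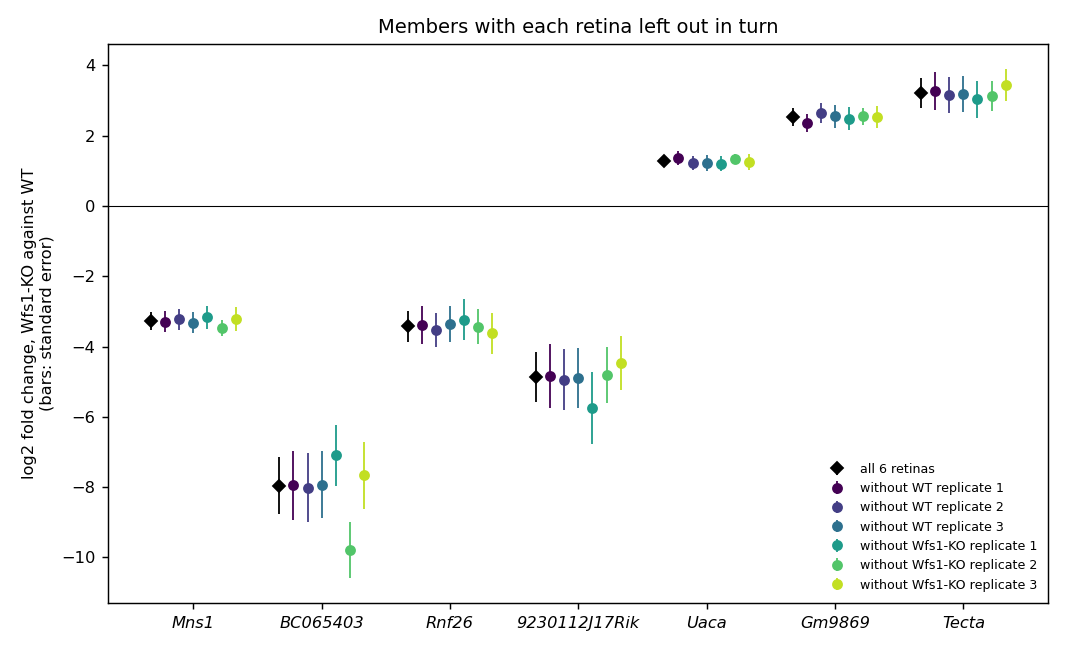
Log2 fold change (Wfs1-KO minus WT) of each gene with all 6 retinas and with each retina left out in turn, with bars of 1 SE. No gene crosses 0, as the choice of the genes fixes, and BC065403 spreads most, from -9.78 to -7.10.

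RPKM is the CPM divided by the exon length in kilobases. On this scale, Uaca led in WT with 5.005 ± 0.487 and Tecta was last with 0.0308 ± 0.0021 (SD, n = 3). In between were Gm9869 with 2.35 ± 0.460, Mns1 with 2.09 ± 0.112, BC065403 with 1.06 ± 0.109, Rnf26 with 0.491 ± 0.0657 and 9230112J17Rik with 0.318 ± 0.0238 RPKM. Only Gm9869 and Mns1 had ranges that overlapped in this order. In Wfs1-KO, Gm9869 (13.5 ± 0.567 RPKM) and Uaca (12.1 ± 1.15) had overlapping ranges at the top. Because strand was not marked, reads of unspliced Uaca RNA over the exons of Gm9869 could not be told apart from those of Gm9869. Tecta (0.288 ± 0.0875) and Mns1 (0.217 ± 0.0470) overlapped below them, followed by Rnf26 (0.0458 ± 0.0115). 9230112J17Rik (0.00851 ± 0.0080) and BC065403 (0.00423 ± 0.0073) overlapped at the bottom. Lengths are the summed exons, including bases shared with other genes, for which reads may not have been counted. The places of Rnf26, Mns1 and BC065403 in this order, the members with the largest shared parts, are therefore uncertain.

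Of the 18547 genes that passed a filter on low counts, 2 had an adjusted p under 0.05 in edgeR's quasi-likelihood test, both lower in Wfs1-KO, which is 0.0108% of the genes tested. The number was 0 without each WT retina in turn and 24 without Wfs1-KO replicate 2. The groups did not overlap and were higher in Wfs1-KO for 5.01% of the tested genes, and did not overlap and were lower for 3.94%. An unadjusted p under 0.05 was found for 2.81%. Nothing is read from the members against these shares, because the same contrast chose them. All 7 members passed the filter, but BC065403, Rnf26 and 9230112J17Rik reached its level of 10 reads at the median depth (0.220 CPM) in WT retinas only, and Tecta reached it in all 3 Wfs1-KO and 2 of 3 WT retinas.

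The edge of the selection was not sharp. Ranked by the unadjusted p of the contrast that chose them, the members were the first 7 of the 349 tested genes of the span, with 9230112J17Rik just inside and Gm37150 just outside, followed by Nrg4 and Il18. By another measure, the gap in log2 CPM between the nearest WT and mutant retinas, the members ranked 1, 3, 4, 5, 6, 7 and 14 in the span, from 4.93 for BC065403 to 0.97 for Uaca. Gm37150, which was no member, ranked second with 4.06. Nrg4, an epidermal growth factor family ligand, and Acsbg1, a very long-chain acyl-CoA synthetase, came next with 1.82 each. Of the 342 other tested genes of the span, 38 (11.1%) did not overlap and were higher in Wfs1-KO and 31 (9.06%) did not overlap and were lower, against the shares of 5.01% and 3.94% over all tested genes. These shares were not tested, since the span was also chosen with the values known. None of the 342 had an adjusted p under 0.05 from edgeR, and 28 had an unadjusted p under 0.05.

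Several members share exon bases with other genes, and the library kit did not mark the strand of the RNA. Mns1 shares 2842 of its 5250 exon bases (54.1%) with Tex9, a testis-expressed gene on the opposite strand. Tex9 had 5.68, 7.25 and 5.39 CPM in WT and 7.38, 2.39 and 6.99 CPM in Wfs1-KO, and its log2 fold change was -0.13 (SE 0.42, adjusted p = 0.979 from edgeR). The groups of Tex9 thus overlapped where those of Mns1 did not, and its lowest value was in Wfs1-KO replicate 2. Mns1 reads came to 189, 161 and 196% of those of Tex9 in WT and to 13.2, 59.4 and 14.6% in Wfs1-KO.

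Rnf26 shares the most, 2321 of 2724 bases (85.2%), so that 403 bases are its own. The largest share, 2059 bases, is with Gm49380, a gene model on the same strand, which had 9, 6 and 0 reads in WT and 6, 4 and 2 in Wfs1-KO. Gm26737, on the opposite strand, shares 313 bases and had 14, 26 and 0 reads in WT and 6, 2 and 9 in Wfs1-KO. The counts of Rnf26 are therefore uncertain as a measure of its whole transcript. BC065403 shares 895 of 1867 bases (47.9%), mainly with Zfp280d, whose log2 fold change was -0.30 (SE 0.28, adjusted p = 0.979 from edgeR). Gm27255, on the opposite strand, shares 348 bases with BC065403. It had too few reads to be tested, with 2, 4 and 2 in WT and 0, 0 and 0 in Wfs1-KO. The shared part is 4.1% for Tecta and 6.0% for 9230112J17Rik, with genes that had no reads in any retina. Uaca and Gm9869 share no exon bases with each other or with any other gene in the table. How reads in shared bases were assigned is not given in the sources used here.

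Genes beside the members were examined with the 3 nearest tested genes on each side of each member, 27 genes in all. Their median log2 fold change was -0.05, against 0.02 over all tested genes, with 13 above and 14 below 0. None passed edgeR's test (smallest adjusted p = 0.320), and 6 had an unadjusted p under 0.05, a level reached by 2.81% of all tested genes. DESeq2 called 2 of them, Gm37150 (adjusted p = 5.83e-06) and Mfrp (adjusted p = 0.0150), and limma-voom called none. Over the alternatives run, the adjusted p ranged from 3.50e-06 to 0.9999 for Gm37150 and from 0.0100 to 0.9999 for Mfrp. The groups did not overlap for 7 higher and 3 lower neighbours, or 25.9% and 11.1% of the 27, against 5.01% and 3.94% of all tested genes. These shares were not tested.

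Gm37150 lies inside the second intron of BC065403, on the opposite strand, as a single exon of 2754 bases at chr9:72384389-72387142. It is a putative transcript of GENCODE. It had 39, 40 and 22 reads in WT and none in any Wfs1-KO retina. As strand was not marked, reads of unspliced BC065403 RNA could not be told apart from those of Gm37150. The WT mean was 0.892 ± 0.334 CPM (SD, n = 3), which was at least 56.3-fold lower in Wfs1-KO when 3 counts over the group (0.0158 CPM) are taken as the floor. Its adjusted p from edgeR was 0.320 with all 6 retinas, 0.0248 without Wfs1-KO replicate 2 and 0.0423 without the filter. Apart from the members BC065403 and Mns1, the tested genes around it showed small differences. These were -0.13 (SE 0.45) for Gm37581, -0.19 (SE 0.29) for Rfx7, a transcription factor of the RFX family, and -0.33 (SE 0.44) for the ubiquitin ligase gene Nedd4.

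Near Uaca most of the nearest genes differed little, apart from Rplp1 and Kif23. Rplp1, 1032.9 kb from Uaca, had 305 to 412 CPM in WT and 389, 1528 and 365 CPM in Wfs1-KO replicates 1, 2 and 3. With overlapping groups, its log2 fold change was 1.13 (SE 0.55, adjusted p = 0.979 from edgeR). The log2 fold change was 0.16 (SE 0.21) for Larp6, an RNA-binding protein 55.7 kb from Uaca, and -0.05 (SE 0.15) for Tle3, a transcriptional corepressor 492.0 kb away on the other side. Lrrc49, which lies between 9230112J17Rik and Uaca, had 65.2 to 67.6 CPM in WT and 69.96 to 75.1 CPM in Wfs1-KO, with a log2 fold change of 0.12 (SE 0.15). On the far side of 9230112J17Rik, Thsd4 had -0.21 (SE 0.33). Kif23, a kinesin of cell division 1036.9 kb from Uaca, had 0.151, 0.210 and 0.227 CPM in WT and 0.689, 0.734 and 0.431 CPM in Wfs1-KO. Its log2 fold change was 1.69 (SE 0.48), with an unadjusted p of 0.00953 and an adjusted p of 0.979 from edgeR.

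Around Rnf26 the groups of 3 of the 6 neighbours did not overlap, and around Tecta those of 4 of 6. Over all tested genes, 5.01% did not overlap and were higher and 3.94% did not overlap and were lower. These small sets were not tested against those shares. Mfrp, a membrane protein of the pigment epithelium and ciliary body 1.6 kb away, had 3.42, 3.68 and 5.90 CPM in WT and 1.64, 0.876 and 1.48 CPM in Wfs1-KO, a log2 fold change of -1.69 (SE 0.37, adjusted p = 0.979 from edgeR). Without Wfs1-KO replicate 2 it was -1.45 (SE 0.30), in retinas in which most pigment epithelium markers were also lower in the mutants. Replicate 2 had the lowest Mfrp level and the highest sum of these markers, but the single markers disagreed. Most were highest in this retina, whereas Lrat had 4.59 CPM there, below the 5.83 to 11.9 CPM of WT. The part of this cell type in the Mfrp value was not tested. Mfrp also shares exon bases with C1qtnf5 on the same strand, for which reads may not have been counted. Gm10687, an antisense RNA 8.7 kb away on the other side, had 0.542, 0.631 and 0.454 CPM in WT and 1.59, 2.98 and 1.29 CPM in Wfs1-KO, a log2 fold change of 1.83 (SE 0.44, adjusted p = 0.979 from edgeR). Mcam, an adhesion molecule of blood vessels, had 4.02 to 5.17 CPM in WT and 6.06 to 7.53 CPM in Wfs1-KO, a log2 fold change of 0.61 (SE 0.23, adjusted p = 0.979 from edgeR). Beside Tecta, the sterol desaturase gene Sc5d had 59.3 to 77.4 CPM in WT and 38.5 to 53.1 CPM in Wfs1-KO, a log2 fold change of -0.49 (SE 0.20, adjusted p = 0.979 from edgeR). The other 3 neighbours of Tecta without overlap were higher, with log2 fold changes of 1.79 (SE 0.81) for Gm35835, 0.47 (SE 0.27) for the tubulin cofactor-like gene Tbcel and 0.44 (SE 0.26) for the kainate receptor gene Grik4. Without Wfs1-KO replicate 2 these were 1.32, 0.11 and 0.20. Around Rnf26 and Tecta, genes with separate groups thus went in both directions.

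**Figure D4:**
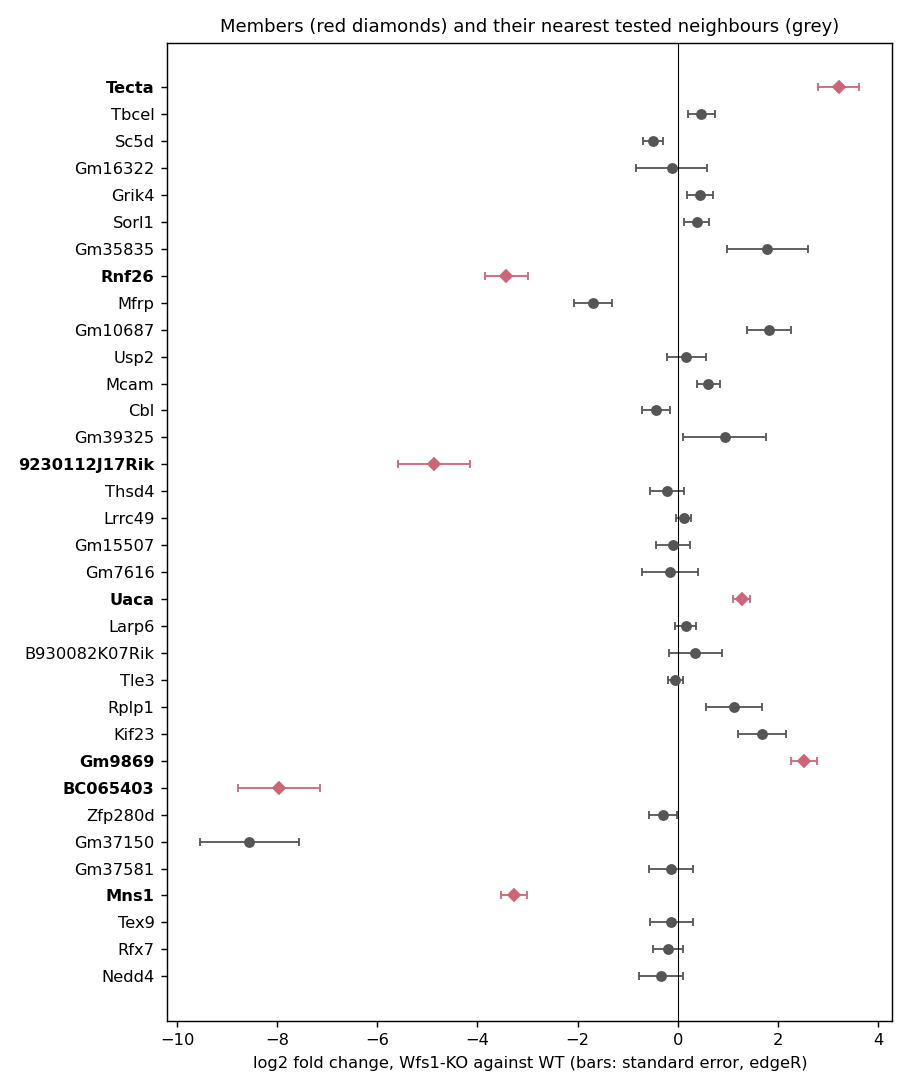
Log2 fold change (Wfs1-KO minus WT) of the members (red) and of the tested genes nearest to each (grey, listed under it), with bars of 1 SE. Members lie far from 0 in both directions, whereas most neighbours lie near 0, with Gm37150, whose mutant libraries were all at 0, as the lowest point.

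The genes most like Mns1 and Uaca over the retinas were ranked by the Pearson correlation of log2 CPM over the 6 retinas, members left out. The retinas share 2 genotypes and the depth of their libraries, and the values are a description. Spag6l, a gene of the central pair of motile cilia on chromosome 16, was most like Mns1 (r = 0.988), with 0.903, 0.883 and 0.908 CPM in WT and 0.592, 0.616 and 0.636 CPM in Wfs1-KO. It was followed by Gm37150 (0.985), Spry4 (0.982) and Eno1b (0.978) of chromosome 18, and Nrg4 of chromosome 9 (0.977). The size of the genotype difference in these genes varied widely, from a log2 fold change of -0.55 (SE 0.35) for Spag6l to -8.55 (SE 0.98) for Gm37150. It was -7.30 (SE 0.40) for Eno1b. Acsbg1, also of chromosome 9, was most like Uaca (r = 0.995) and had a log2 fold change of 2.62 (SE 0.49). It was followed by Fam221b (0.985, chromosome 4), Gm9008 (0.973, chromosome 6), Lca5l (0.970, chromosome 16) and Oaz2-ps (0.969, chromosome 3). Lca5l, related to the ciliary protein lebercilin, had 1.45 to 1.66 CPM in WT and 2.64 to 3.29 CPM in Wfs1-KO.

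The pathways of the protein-coding members were followed with 4 gene lists. In none did a gene pass the adjusted threshold in edgeR, DESeq2 or limma-voom, and no gene had an unadjusted p under 0.05 in edgeR. Of 44 axonemal and motile cilium genes around Mns1, 33 were tested, and 25 of them had a positive log2 fold change, with a median of 0.39 against 0.02 over all genes. Without Wfs1-KO replicate 2 the median was 0.12, and 26 of the 34 genes then tested were above 0. Their summed level was 219 to 227 CPM in WT and 224 to 231 CPM in Wfs1-KO, so the summed list did not show a decrease like that of Mns1. The genes with the smallest p were Enkur, with 0.99 (SE 0.43) and 0.50 without Wfs1-KO replicate 2, and the dynein heavy chain Dnah9, with -0.56 (SE 0.26) and -0.35 without that retina.

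The 13 apoptosome, Bcl-2 family and PAR-4 genes around Uaca had a median of 0.0023, with 7 above 0. Among them the survival factor Bcl2 had 0.38 (SE 0.19). The 11 tested endosome and STING pathway genes around Rnf26 had a median of -0.09, with 2 above 0. Tmem173, which encodes STING, had 0.88 (SE 0.50) and 0.32 without Wfs1-KO replicate 2, and Tmem43 had -0.26 (SE 0.18). Of 10 tectorial membrane genes around Tecta, 8 were tested, with a median of 0.13 and 5 above 0. The cartilage-type collagen genes Col9a2 and Col11a2 had 0.62 (SE 0.40) and -0.41 (SE 0.26). Without Wfs1-KO replicate 2 the value of Col9a2 was 0.21 and the median of this last list was -0.14. All 7 genes named from these lists had an adjusted p of 0.979 from edgeR.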

How the data were processed

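Per the submitters' processing notes, reads were trimmed with Trimmomatic 0.39, aligned to mm10 with STAR 2.5.3a and counted with featureCounts 1.6.4, while the methods of the study name other versions. The authors deposited raw counts of reads on exons per gene, together with gene positions and lengths (not normalised), for 8 libraries. Columns were matched to samples by a letter (C for control, W for mutant) and a number, which left 2 columns without a listed sample and out of every step. The labels name a Trizol extraction and the methods a column kit. The TruSeq kit named in the labels does not mark strand.

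Counts of 3 WT and 3 Wfs1-KO retinas were compared with edgeR 4.0.16 (R 4.3.3; TMM, filterByExpr, quasi-likelihood F test, genotype alone) over all genes, with Benjamini-Hochberg adjustment. The SE is the absolute log2 fold change divided by the square root of F. CPM used TMM library sizes, and log2 CPM a prior count of 2. Pooled count ratios have exact conditional 95% intervals, for counting error only. Depth was 17916885 to 101334381 counts. The fits were tested on simulated data. Alternatives were DESeq2 1.42.0, limma-voom (limma 3.58.1), RLE scaling, no filter, a replicate block, a minimum of 10 counts per retina, leaving out each retina and 5 neighbours on each side. A fit without both Wfs1-KO replicate 2 and WT replicate 3, and DESeq2 on the genes kept by the edgeR filter, were added after seeing the data. Exons and positions were those deposited with the counts. GENCODE M21 gave gene identifiers and types, with 54509 of 55376 symbols matched (98.4%), and RefSeq (GRCm38.p6) gave promoters. The outer positions of Mns1, Rnf26 and Tecta differed between M21 and the deposited annotation. Named genes were the members, the 3 nearest tested genes on each side and exon-sharing genes, the 5 genes most correlated with Mns1 and with Uaca, and the 2 genes of each list with the smallest p, of which 1 is not reported here. Il18, Ddx3y and Lrat were named after their values were seen, and C1qtnf5 was named for the exon bases it shares with Mfrp. The members, the span and the gene lists were chosen with earlier results of these data known.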

Additional observations from a re-analysis of the deposited data

How the results depend on the processing

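The members kept their direction in every alternative, as their selection fixes, with the ranges given above. The filter of at least 10 counts in every retina left 3 of them (Mns1, Gm9869 and Uaca). The number of genes with an adjusted p under 0.05 was 2 with edgeR on all 6 retinas and depended on the processing. It was also 2 with limma-voom, with RLE scaling and with at least 10 counts in every retina. It was 49 with DESeq2, which was run without the edgeR filter, 52 with DESeq2 on the filtered genes, 9 with edgeR without a filter, 521 at an unadjusted p, and 16 without both Wfs1-KO replicate 2 and WT replicate 3. With single retinas left out it ranged from 0 (without each of the 3 WT retinas) to 24 (without Wfs1-KO replicate 2), and it was 1 without either of the other Wfs1-KO retinas. Of the 27 neighbours, 0 passed with edgeR, 2 with DESeq2 in either form, 1 without a filter and 6 at an unadjusted p, and 0 to 1 passed with single retinas left out, the 1 without Wfs1-KO replicate 2. The cause of these changes was not tested. The count for the gene lists was 0 in each alternative. With a replicate block the number of genes was 1. Equal replicate numbers stand for different mice, their deviations correlated at -0.234, -0.111 and 0.078, and 0 of 6 retinas correlated best with the one of its own number, so the samples were not treated as paired. With 1 mutant read of BC065403 and 5 of 9230112J17Rik, depth limits the size of these 2 differences. Only 3 mice per group were measured, and nothing in these data separates genotype from other differences between the 2 groups of mice.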
